A study of Homo sapiens with 2 samples.

Results

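The regions described here are RNA peaks that lie more than 1 kb and up to 3 kb after the annotated start of a transcript, and that the deposited annotation therefore files under "promoter". They were chosen as the promoter-class rows of the deposited peak list with a distance to the start above 1000 bp and a width of at most 10000 bp, on the standard nuclear chromosomes. The rule used position and width only, not fold or q. It gave 8511 peaks of the 175546 in the list, and these peaks were assigned to 5489 genes, of which 5485 had an entry in the RefSeq gene table. The distance and the class were the authors' own. The distance runs from the start to the nearer edge of the peak. Most members were narrow, with a median width of 61 bp, but the summit of a wide one can lie past 3 kb. An example is ARSG, with a distance of 2645 bp and a width of 8959 bp.

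The series holds 1 library of RNA precipitated with CRTC2 (RNA immunoprecipitation, RIP) and 1 input library, both from HCCLM3, an established line of human hepatocellular carcinoma cells whose genotype is given as WT. A Magna RIP kit served for the RNA of both, and a SMARTer stranded kit for small amounts of total RNA served for the libraries. There is no replicate of either library and no precipitation with a control antibody among the samples, so no difference below has a replicate check and no p-value of this work is given. Intervals are 95% intervals and cover counting error only, and reads without molecular identifiers are not independent molecules.

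CRTC2 is a coactivator that moves into the nucleus when cAMP or calcium signals rise and binds CREB, a transcription factor that recognises the cAMP response element in promoters. YTHDF2 is a cytoplasmic reader of N6-methyladenosine in mRNA. In peak annotation, closeness to a start is commonly given priority over exon and intron, so a peak of an RNA experiment can be called promoter although the fragment came from inside a transcript. The promoter class hence says nothing of whether these peaks lie in an exon, an intron or a UTR, and the deposited peaks carry no strand, so overlapping and antisense genes cannot be told apart.

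The genome sequence at the summit could be read for 18 of the peaks, those whose summit fell in the stretch that RefSeq's promoter table (GRCh38.p14) holds around the start of another or an alternative transcript. The windows below have 30 bases around the summit and are written 5′ to 3′ on the strand of the assigned gene. They show what lies under a peak with many fragments (RPL27, HUWE1, CAVIN3) and under peaks with few (MYL6B, BRWD3, ATXN2L, EPHA2). Capitals mark GGACT, the commonest form of the N6-methyladenosine consensus, which was searched on this strand only.
MYL6B: ttcccgtgaagaaaccagcagggccctcca
BRWD3: actgggacacaggttgggtccagttgatgg
ATXN2L: gggcagGGACTagttcgtggaggggctcgt
EPHA2: tgctcatggcgcagcgggtgcgtggtgggg
HUWE1: cgcgcggaggcggcggtggctcggttactg
RPL27: gatcgcccctacagccatgctctggtggct
CAVIN3: cacgccctaataaggagcgaatcctacatc

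GGACT was present in 1 of the 18 windows, that of ATXN2L, and a CpG in 11. GC content ran from 43.3% to 76.7% with a median of 60.0%. The RPL27 window, at chr17:42999954-42999983 (plus strand), belonged to a peak 1542 bp after the start of this large-subunit ribosomal protein gene. That peak held 28 RIP fragments at a fold of 1.66. The MYL6B window, at chr12:56153938-56153967 (plus strand), belonged to a peak of 5 RIP fragments and a fold of 3.67, for a gene that encodes a myosin light chain. The BRWD3 window, at chrX:80808663-80808692 (minus strand), belonged to a peak of 2 RIP fragments and a fold of 2.83. The HUWE1 window, at chrX:53683987-53684016 (minus strand), came from a ubiquitin ligase gene and held 6 CpG pairs under a peak of 13 fragments and a fold of 1.76. None of these peaks had a q of at most 0.05. The 18 windows were those that could be read and are no sample of all members.

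Each peak carries a fold, which is the authors' ratio of RIP at the summit over the caller's input level, and their −log10 p and −log10 q. These values are used here only to describe and rank peaks. The number of RIP fragments and the input level behind each fold were recovered from the fold and the p together. An input level is expressed in RIP-scaled fragments, with 1 input fragment counting as 0.634, and the total depth of the libraries is unknown. The median level of the members was 0.275 and the lowest of the list 0.0298. A level below 0.634 is less than 1 input fragment, so it is no count of input fragments at the summit. How the caller set such levels is not given.

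Peaks 1 to 3 kb after the start became somewhat fewer with distance and were mostly shallow. The number of promoter-class peaks was 6294 in the first 250 bp after the start, 1861 in the next 250 bp and 1394 between 750 and 1000 bp. From 1000 to 1250 bp it was 1265, and at 2750 to 3000 bp it was 984. At the same distances before the start, from 1 to 3 kb, each 250 bp held 396 to 515 peaks. The share of peaks resting on 1 RIP fragment was 12.7% in the first 250 bp after the start and lay between 44.2% and 49.1% in every bin from 1 to 3 kb.

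**Figure D1:**
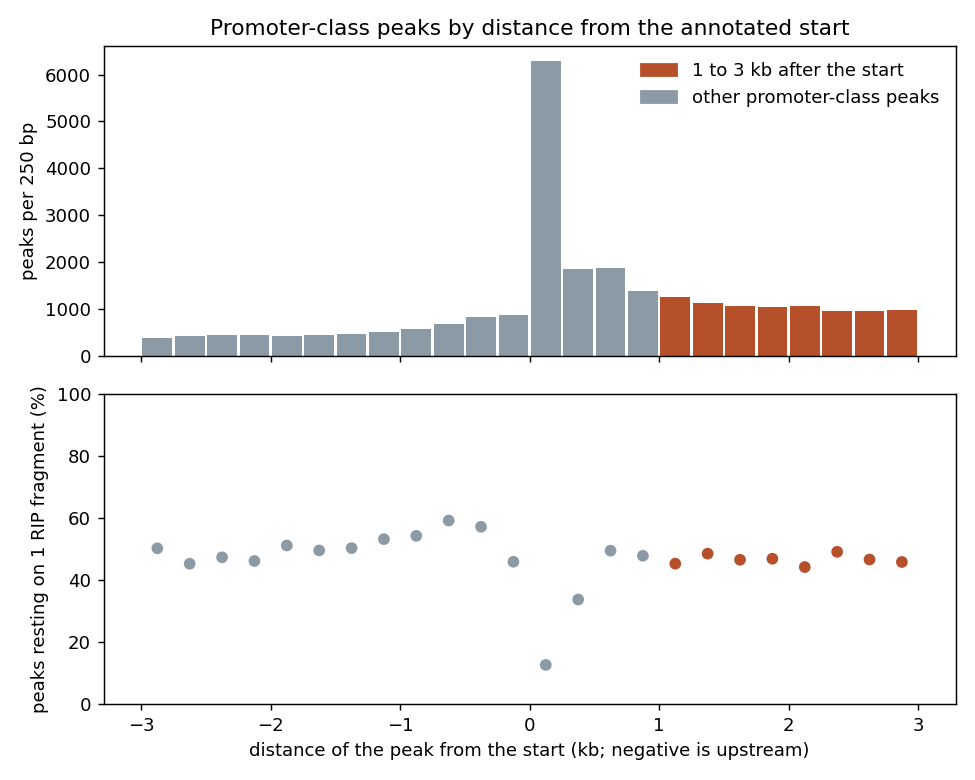
Number of promoter-class peaks per 250 bp (upper panel) and percent of them resting on 1 RIP fragment (lower panel) against the distance from the annotated start in kb, with the 8511 peaks at 1 to 3 kb after the start in brown. The brown bins hold 965 to 1265 peaks each, and their share of peaks on 1 fragment stays between 44.2% and 49.1%.

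The limits of the rule did not coincide with a step in these values. The 1394 peaks at 751 to 1000 bp had 47.8% on 1 fragment and 1.22% at a q of at most 0.05, and the 1265 peaks just inside, at 1001 to 1250 bp, had 45.3% and 0.949%. The 956 peaks at 3001 to 3250 bp had 45.1% on 1 fragment and 1.57% at that q, against 45.8% and 1.02% for the 984 peaks at 2751 to 3000 bp. The median fold was 1.84 in all 4 of these bins. Of promoter-class peaks just under the width limit, 86.4% of 118 rested on 1 fragment, and just above it 80.2% of 126.

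The median fold of the 8511 peaks was 1.84 (quartiles 1.70 and 2.21, range 1.36 to 10.4). The median number of RIP fragments was 2 (quartiles 1 and 5, at most 33). A single fragment carried 3966 of the peaks (46.6%, interval 45.5 to 47.7), and 2259 (26.5%) held at least 5. In width, 3226 peaks (37.9%) measured 31 bp, the commonest width. The −log10 q was 0 for 92.0%. Of the 5489 genes, 2199 had only members of 1 fragment.

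A q of at most 0.05 was given to 91 of the 8511 peaks, in 86 genes. That share was 1.07% (interval 0.862 to 1.31), and the share over all peaks of the list was 1.63%. Peaks within 1 kb after the start had 1.66% (interval 1.44 to 1.91, 11432 peaks) and those 1 to 3 kb upstream 0.918% (0.633 to 1.29, 3596 peaks). Exon peaks had 2.83% (2.68 to 2.97, 51091 peaks) and intron peaks 0.310% (0.259 to 0.367, 42586 peaks). The members thus lay between the exon and intron classes, with an interval that overlapped that of the upstream peaks and not those of the other 3 classes named so far. The 3′ UTR peaks had 0.903% (0.786 to 1.03, 23593 peaks) and distal intergenic peaks 1.01% (0.814 to 1.23, 9227 peaks), and both intervals overlapped that of the members. Between the exon and intron classes the order for single-fragment peaks was reversed, with 13.8% of exon peaks, 46.6% of members and 86.1% of intron peaks. The 3′ UTR and distal intergenic peaks did not follow this order. They had 27.8% and 70.2% on 1 fragment, on either side of the members, at shares at that q like that of the members.

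Just past the 3 kb limit the annotation names exons and introns again. Of the 3714 peaks at 3001 to 4000 bp, 40.8% (interval 39.2 to 42.4) were called exon, 36.4% (34.9 to 38.0) intron, 14.6% 3′ UTR and 6.22% 5′ UTR. A single fragment carried 17.8% of those exon peaks, 25.6% of the 3′ UTR peaks and 87.7% of the intron peaks. Whether the members divide in the same way was not tested, since no exon annotation of the build was used here.

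The length of the assigned transcript went with the depth of the peak. Among members assigned to transcripts that span 3 to 5 kb, 29.1% (interval 26.2 to 32.2, 889 peaks) rested on 1 fragment. For spans of 10 to 30 kb the share was 50.4% (48.3 to 52.5, 2214 peaks), for 30 to 100 kb 65.6% (63.4 to 67.8, 1783 peaks), and above 100 kb 71.1% (67.6 to 74.5, 682 peaks). Up to 10 kb the shares in each span class lay between 29.1% and 32.5%. None of the 826 members at spans up to 1 kb had its summit inside the assigned transcript, and 74.1% of the 760 at 1 to 3 kb did. In these classes the span need not be that of the transcript the fragments came from.

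Some of the members can be placed at or before the end of the first intron, because the list names a peak further on, past 3 kb, as lying in the first intron of the same transcript. These 891 members rested on 1 fragment in 81.8% of cases (interval 79.1 to 84.3), and 1 of them (0.112%) had a q of at most 0.05. The other 6591 members inside their transcript did so in 43.9% (42.7 to 45.1), and 74 of them (1.12%) had such a q. A member of 1 fragment could not reach that q, so the shares at that q follow in part from the shares on 1 fragment. The difference in the share on 1 fragment also held between transcripts of like span. It was 78.5% against 47.1% at 10 to 30 kb, 81.3% against 60.8% at 30 to 100 kb and 86.1% against 63.8% above 100 kb. Peaks called first intron by the list had 84.0% on 1 fragment (7285 peaks), close to the 81.8% of the placed members.

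**Figure D2:**
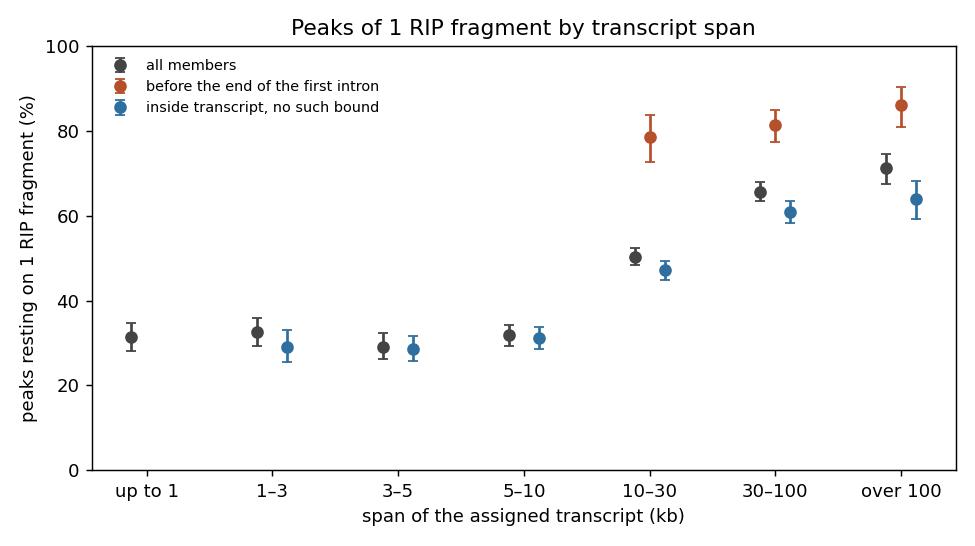
Percent of members resting on 1 RIP fragment by the span of the assigned transcript in kb, with exact 95% intervals, for all members, for those placed at or before the end of the first intron and for the others inside their transcript. The shares of all members stay between 29.1% and 32.5% up to 10 kb and reach 71.1% above 100 kb, and the placed members lie at 78.5% to 86.1%. No member at a span up to 1 kb, and 74.1% of those at 1 to 3 kb, has its summit inside the assigned transcript.

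Not every member lay in the gene it was assigned to. The summit lay inside the assigned transcript for 7482 members (87.9%, interval 87.2 to 88.6) and past its end for 1029. Of those 1029, 882 (85.7%, interval 83.4 to 87.8) had another protein-coding gene over the summit. They rested on 1 fragment in 28.0% of cases, against 67.3% of the 147 with no coding gene there. Inside the assigned transcript, 642 members also had another coding gene over the summit.

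Short RNA genes account for many of these. MicroRNA genes were the assigned gene of 541 members, although a microRNA hairpin is far shorter than the distance, and 92.1% (interval 89.4 to 94.2) of those summits lay in a coding gene. Small nucleolar RNA genes were assigned 203 members, with 88.2% in a coding gene. Of the microRNA-assigned members, 13 (2.40%, interval 1.29 to 4.07) had a q of at most 0.05, against 66 of 6915 (0.954%, interval 0.739 to 1.21) of those assigned to protein-coding genes and 7 of 609 assigned to long non-coding RNA genes. By summit position, the microRNA-named peaks with such a q lay in AMOTL2, CDC16, SLC12A7, DKC1, RPL8, JAG1, EIF3C, KIFC3, HDAC4 and ATG2A among others, which are the genes those RNA fragments overlap.

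The highest folds of the members rested on about 10 fragments over an input level below that of 1 input fragment. OVCH1-AS1, a long non-coding RNA gene antisense to OVCH1, had the highest, at chr12:29391585-29391753 (hg38), 2291 bp after its start, with 10 RIP fragments at an input level of 0.0589. The fold was 10.4 (interval 5.47 to 18.3) and the −log10 q 14.4. A second OVCH1-AS1 peak at chr12:29392165-29392623 had 5 fragments and a fold of 5.37 (2.35 to 11.3). RIP stood above the input level in every peak of the list, whose lowest fold was 1.33, so this is no finding about these places. The input level at both was that of less than 1 input fragment.

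The peak assigned to SNORD170, a small nucleolar RNA, lay at chr5:14465547-14465823 inside TRIO, a gene for a guanine nucleotide exchange factor. It had 10 fragments at an input level of 0.196 and a fold of 9.19 (4.84 to 16.2). SRGAP2C, a human-specific copy of SRGAP2, had 9 fragments at 0.0982 and a fold of 9.11 (4.66 to 16.5) at chr1:121187091-121187530, and reads from its near-identical relatives could have been placed there. UNC45B, a myosin chaperone known from muscle, had 9 fragments at 0.236 and a fold of 8.09 (4.14 to 14.6) at chr17:35151125-35151329. ZFTA, a zinc finger gene, had 8 fragments at 0.216 and a fold of 7.40 (3.66 to 13.8) at chr11:63765808-63766305. All 4 input levels were again below that of 1 input fragment.

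Next in the order was MIR6827, with 2 peaks at a q of at most 0.05 whose summits lay in AMOTL2, an angiomotin family gene. The higher had 14 fragments at an input level of 1.27 and a fold of 6.62 (3.82 to 10.8), and the other had 8 fragments and a fold of 5.51 (2.73 to 10.3). MAN1B1, an alpha-mannosidase of the secretory pathway, had 9 fragments at 0.634 and a fold of 6.12 (3.13 to 11.1). The pseudogene DKFZP586I1420 and LPCAT4, a lysophospholipid acyltransferase, had 6 fragments at 0.157 and a fold of 6.05 (2.77 to 12.2) each.

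Peaks of more than 20 fragments gave smaller folds on firmer counts. MYL6, a myosin light chain gene, had a peak at chr12:56159628-56159751, 1269 bp after the start, with 25 fragments at an input level of 4.42 and a fold of 4.80 (3.17 to 6.99). A second MYL6 peak 1635 bp after the start had 28 fragments at 18.4 and a fold of 1.50 (1.01 to 2.14), with a −log10 q of 0. The RIP fragments were alike at both places while the input differed. Both RIP numbers lie near 31 fragments, a number that few members exceed, as described below. The input level of 18.4 lies near the 19.6 that 31 input fragments count for. Whether this bears on the 2 folds was not tested. C4orf46 had 23 fragments at 3.80 and a fold of 4.998 (3.24 to 7.40), in a peak of 1396 bp.

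NFKBIA encodes the inhibitor that holds NF-κB in the cytoplasm and had 3 members along its short transcript. They had 18 fragments at an input level of 6.34 at 1403 bp, 24 at 8.24 at 1904 bp and 25 at 5.07 at 2700 bp. The folds were 2.59 (1.59 to 4.01), 2.71 (1.77 to 3.97) and 4.28 (2.83 to 6.25), with overlapping intervals. Only the last had a q of at most 0.05.

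**Figure D3:**
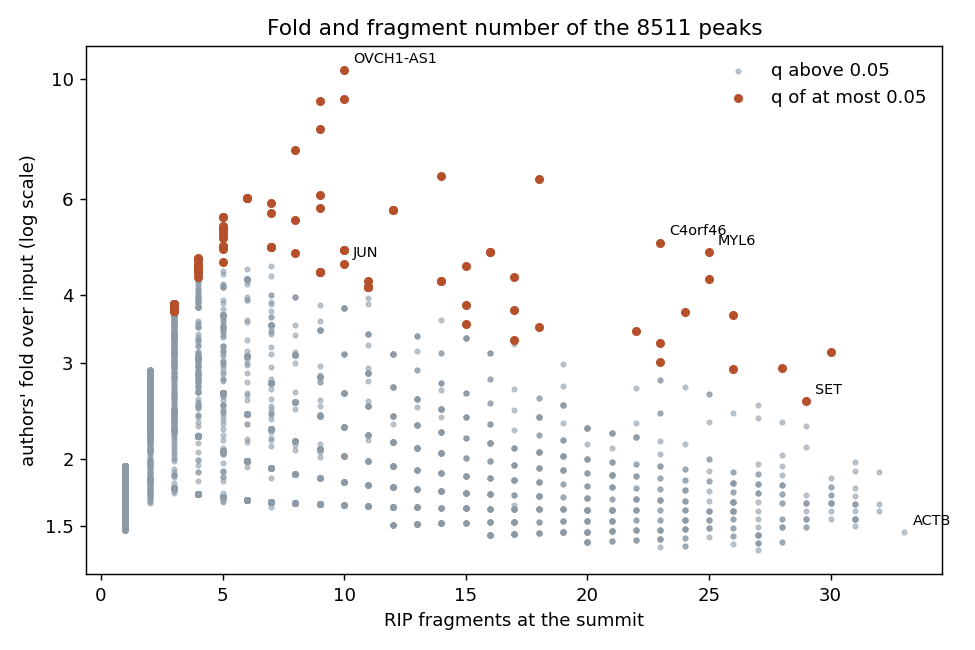
Authors' fold over input (log scale) against the RIP fragments at the summit for the 8511 members, with the 91 at a q of at most 0.05 in brown. At 1 fragment such a q could not be reached at any input level of the list. Folds above 8 occur at 9 or 10 fragments, and the peaks of most fragments, such as that of ACTB at 33, lie at low folds.

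Further peaks at a q of at most 0.05 are named here after their values were seen. Several belonged to regulatory genes. CCN2, a matricellular protein, and WEE1, the kinase that inhibits CDK1, had 12 fragments at 1.27 and a fold of 5.73 (3.18 to 9.69) each. SPRY1, an inhibitor of receptor tyrosine kinase signalling, had 16 fragments at 2.53 and a fold of 4.81 (2.87 to 7.63). JAG1, a Notch ligand, had 17 fragments at 3.80 and a fold of 3.75 (2.27 to 5.88) at 1022 bp after its start. A peak assigned to MIR6870, with its summit in JAG1 too, had 18 fragments and a fold of 3.50 (2.15 to 5.42). IRS1, the adaptor of the insulin receptor, had 15 fragments at 3.52 and a fold of 3.54 (2.08 to 5.70).

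Genes of RNA handling also appeared among them. CPEB2, a cytoplasmic polyadenylation element binding protein, had 15 fragments and a fold of 4.53 (2.66 to 7.28). CSTF2T, a cleavage stimulation factor, had 14 fragments and a fold of 4.24 (2.45 to 6.93), at a place that PRKG1 also covers. THOC3, of the mRNA export complex THO, had 10 fragments and a fold of 4.85 (2.56 to 8.55). PNRC2, which takes part in mRNA decapping, had 11 fragments and a fold of 4.25 (2.30 to 7.32), and GEMIN5, the snRNA-binding protein of the SMN complex, 5 fragments and a fold of 5.10 (2.23 to 10.8). No theme is drawn from these names.

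Support among the 91 peaks was uneven. At most 5 fragments lay under 36 of them (39.6%, interval 29.5 to 50.4), and fewer than 5 under 25, while 37 had at least 10. The lowest number was 3 fragments, as in CREB3L3, a liver bZIP factor gene, with a fold of 3.78 (1.53 to 9.22). The rRNA genes on chromosome 21 gave 3 of the 91, on 17 to 30 fragments. These are repeated arrays in which reads cannot be assigned to 1 copy.

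Transfer RNA genes, which were looked at after the values were seen, lay over the summit of 7 members, and 3 of those had a q of at most 0.05. The 3 were narrow. A peak of 55 bp over TRK-CTT4-1, assigned to OR1F1, had 22 fragments and a fold of 3.43 (2.21 to 5.12). A peak of 38 bp over TRG-TCC3-1, assigned to LINC00324, had 23 fragments and a fold of 3.01 (1.95 to 4.46), and a peak of 98 bp over TRH-GTG1-7, assigned to SHF, had 11 fragments and a fold of 4.14 (2.24 to 7.13). The other 4 had folds of 1.66 to 3.33 on 6 to 15 fragments. All 7 summits lay in a tRNA gene far shorter than their distance to the start of the assigned gene. Genes for tRNAs occur in near-identical copies, so the copy is uncertain.

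Members with the most fragments mostly had low folds. ACTB, cytoplasmic actin, held 33 RIP fragments, the most of any member, at a fold of 1.47. FTL, the ferritin light chain, held 32 at a fold of 1.60, and MALAT1, a nuclear long non-coding RNA, 30 at a fold of 1.65. The 141 members of 25 or more fragments lay in 110 genes and had a median fold of 1.66, and 7 of them had a q of at most 0.05. Exactly 31 fragments lay under 14 members and more than that under 4. Over all peaks of the list, 111 held 30 fragments, 80 held 31 and 51 held 32 or more, up to 49, so 31 was no fixed limit. A summit with 31 fragments in both libraries would have a fold of 1.55, since 31 input fragments count as 19.6. The number 31 is also the commonest width of the peaks in bp. The caller's handling of duplicate reads is not given in the sources used here, and its part in these numbers was not tested.

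By fragment number, no member of 1 fragment, at folds of 1.48 to 1.94, had a q of at most 0.05. This was fixed in advance. At 1 fragment and the lowest input level of the list, 0.0298, the caller's Poisson −log10 p was 3.36. The lowest among the 91 members at that q was 5.95. The share at that q was 1.09% of 2286 members on 2 to 4 fragments, 2.44% of 1187 on 5 to 9, 3.36% of 743 on 10 to 19 and 3.65% of 329 on 20 to 33. The median fold over these classes was 1.76, 2.39, 2.08, 1.81 and 1.65, in that order from 1 fragment upwards.

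A member peak was present in 4525 of the 20052 protein-coding genes of the RefSeq table, which is 22.6%, and 64 coding genes (0.319%) had a member with a q of at most 0.05. Coding genes that span under 3 kb carried a member in 15.3% of cases, those of 3 to 5 kb in 27.8% and those above 100 kb in 17.5%. The median of the highest fold per gene was 1.87 over coding genes with a member. The gene lists that follow are set beside these shares as a description, and levels of expression, which differ between lists, were not accounted for. When at least 5 fragments were required, 12 of the 19 lists changed their number of genes with a member by over 1.5 times.

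Immediate early genes and other transcription factor genes with a single coding exon carried a member in 20 of 29 cases (69.0%, interval 49.2 to 84.7), with a median highest fold of 2.28. With members of at least 5 fragments it was 13 of 29 (44.8%), below the housekeeping genes at 52.9% and splicing factors at 45.2%. JUN, a component of AP-1, had 10 fragments at an input level of 1.41 and a fold of 4.56 (2.40 to 8.03), 2982 bp after its start, and was the only 1 of the list with a q of at most 0.05. KLF2 had 6 fragments and a fold of 4.28 (1.96 to 8.61), and EGR1 15 fragments and a fold of 3.33 (1.96 to 5.36). The summit assigned to CEBPD, with 4 fragments and a fold of 3.06 (1.28 to 6.88), lay past the end of the gene and inside SPIDR.

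Ribosomal protein genes carried a member in 35 of 77 cases (45.5%, interval 34.1 to 57.2), with a median highest fold of 1.72 and a median of 27 fragments at their deepest member. RPL22 had 26 fragments at 8.24 and a fold of 2.92 (1.95 to 4.23), with a q of at most 0.05. Genes of this list have many processed pseudogenes, and the placement of their reads is uncertain. RPL37A had 3 fragments and a fold of 2.43, and a peak assigned to RPS21 with 4 fragments and a fold of 2.87 had its summit in CABLES2. Housekeeping genes were alike in depth, with 20 of 34 carrying a member, a median of 29 fragments and a median highest fold of 1.69. Among them were PPIA, a cyclophilin with many pseudogenes, at 27 fragments and a fold of 2.51 (1.69 to 3.62), TUBA1A, an alpha-tubulin, at 3 fragments and a fold of 2.45 (0.991 to 5.98), and PFN1, an actin-binding profilin, at 28 fragments and a fold of 2.34 (1.58 to 3.34). Folds in both lists were lower, and fragments more, than over all coding genes, whose median depth was 2 fragments.

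Among known CREB and CRTC target genes, 12 of 24 carried a member (interval 29.1% to 70.9%), and none had a q of at most 0.05. The highest fold was that of BDNF, a neurotrophin, with 4 fragments and a fold of 3.06 (1.28 to 6.88) at a place that BDNF-AS also covers. SIK1, a kinase that phosphorylates CRTC proteins, had 2 fragments and a fold of 2.91 (1.21 to 7.99). It lay in a part of chromosome 21 that repeats the SIK1 gene, and its copy is uncertain. PER1, a clock gene, and IRS2, an insulin receptor substrate, also had 2 fragments, with folds of 2.78 (1.15 to 7.63) and 2.73 (1.13 to 7.49). Only 3 of the 12 genes had a member of at least 5 fragments. CREB and CRTC signalling genes carried a member in 8 of 25 cases. ADCY9, an adenylyl cyclase, had 5 fragments and a fold of 2.07 (0.904 to 4.37), and CREB1 and CREM had 1 fragment each, with folds of 1.91 and 1.86.

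CRTC2 itself had no member peak and carried 3 promoter-class peaks nearer to or before its start and 4 exon peaks. YTHDF2 had 1 member, at chr1:28738292-28738367, 1352 bp after its start. It held 11 RIP fragments at an input level of 6.34, with a fold of 1.64 (0.885 to 2.82) and a −log10 q of 0. The interval includes 1, so RIP and input did not differ there beyond counting error.

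Writers, erasers and readers of N6-methyladenosine carried a member in 11 of 23 cases, with a median highest fold of 1.83. RBM15, which recruits the methylation complex, had 6 fragments and a fold of 3.09 (1.41 to 6.20), and RBM15B, its relative, 9 fragments and a fold of 2.08 (1.07 to 3.77). IGF2BP3 had 3 fragments and a fold of 2.45 (0.991 to 5.98), and IGF2BP2 had 1. P-body and stress granule genes carried a member in 16 of 33 cases, with a median of 1 fragment at the deepest member. PUM2, a Pumilio repressor, had 4 fragments and a fold of 3.06 (1.28 to 6.88), and LSM14B 7 fragments and a fold of 2.76 (1.31 to 5.32). No gene of either list had a q of at most 0.05.

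Chaperones carried a member in 17 of 28 cases. DNAJB9, an ER co-chaperone, had 6 fragments and a fold of 4.28 (1.96 to 8.61), and HSPA5, the ER chaperone BiP, 15 fragments and a fold of 2.39 (1.40 to 3.84). Splicing factor genes carried one in 18 of 31 cases. SRSF1 had 17 fragments and a fold of 2.45 (1.49 to 3.85), HNRNPA0, whose coding sequence lies in 1 exon, 8 fragments and a fold of 2.55 (1.26 to 4.74), and HNRNPA1, a gene with many pseudogenes, 9 fragments and a fold of 2.83 (1.45 to 5.12). Translation factor genes carried one in 20 of 32 cases. EIF4G2 had 25 fragments at 8.87 and a fold of 2.63 (1.74 to 3.84), EIF3C, a gene with a near-identical copy, 20 fragments and a fold of 2.27 (1.43 to 3.45), and EEF1G 28 fragments at 14.6 and a fold of 1.86 (1.26 to 2.66). None of these 3 lists held a gene with a q of at most 0.05.

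Chromatin regulators carried a member in 20 of 40 cases. SETD1B, a histone H3 lysine methyltransferase, was the only 1 with a q of at most 0.05. Its 2 peaks had 11 fragments at an input level of 1.90 and a fold of 4.14 (2.24 to 7.13), 1114 bp after the start, and 10 fragments at 1.27 and a fold of 4.85 (2.56 to 8.55), 1838 bp after it. KMT2D, of the same enzyme family, had 8 fragments and a fold of 3.97 (1.96 to 7.39), SMARCA4 7 fragments and a fold of 3.21 (1.53 to 6.19), and CHD3 8 fragments and a fold of 3.10 (1.54 to 5.78).

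Liver cancer genes carried a member in 16 of 30 cases. MCL1, an anti-apoptotic protein, had 11 fragments and a fold of 2.88 (1.56 to 4.96). Genes of the unfolded protein and stress response did so in 11 of 26 cases. Among them PPP1R15A, a phosphatase subunit that reverses the stress block on translation, had 18 fragments and a fold of 2.06 (1.26 to 3.19). Respiratory chain genes did so in 16 of 46 cases, with COX5B at 18 fragments and a fold of 2.21 (1.36 to 3.42), and long non-coding RNAs and snoRNA hosts in 8 of 29, with NEAT1 at 7 fragments and a fold of 2.76 (1.31 to 5.32). None of these genes had a q of at most 0.05. Replication-dependent histone genes, which are short, carried a member in 1 of 23 cases, and the H4C14 summit lay past the end of the gene.

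Of 14 hepatocyte markers, 8 carried a member, with a median of 1.5 fragments at the deepest one, and APOA1, APOA2, APOB, FGB, SERPINA1 and TTR carried none. Only 3 carried a member of at least 5 fragments, which were ALB at 5 fragments and a fold of 3.67 (1.61 to 7.75), FOXA1 at 9 fragments and a fold of 2.40 (1.23 to 4.34) and FOXA2 at 14 fragments and a fold of 2.39 (1.38 to 3.90). None of 8 blood and immune markers and none of 8 stellate, endothelial and fibroblast markers carried one, where the exact interval reaches 36.9% for each.

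**Figure D4:**
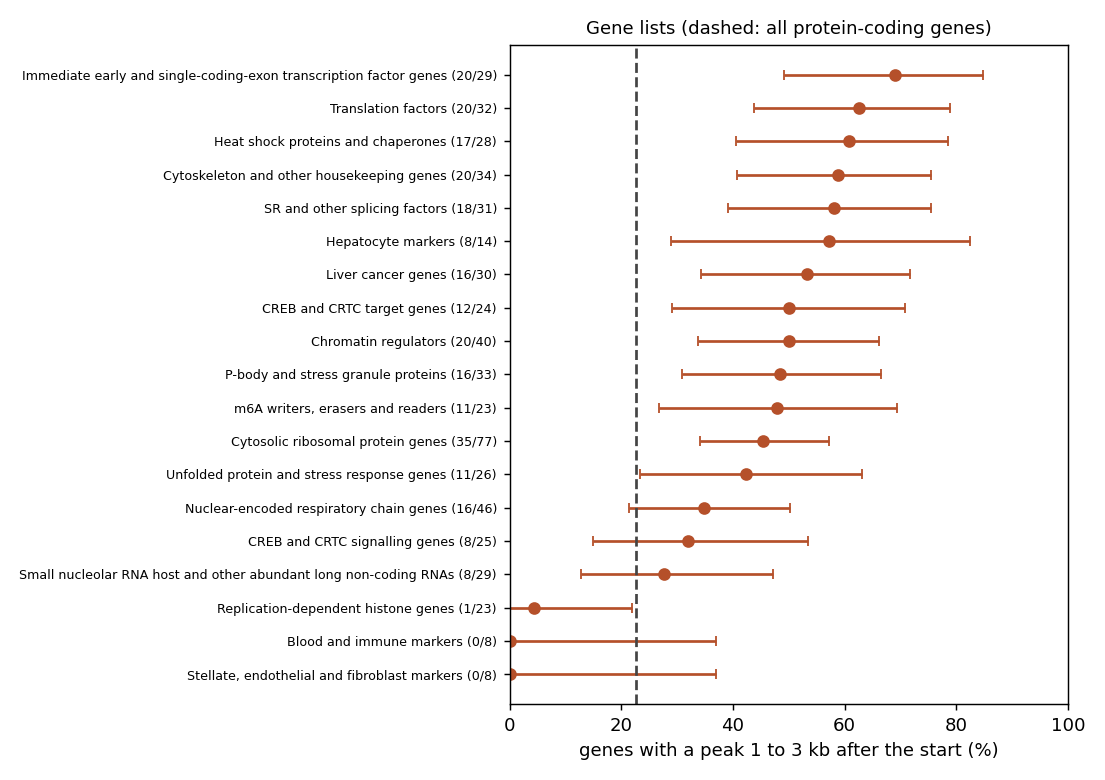
Percent of the genes of each list that carry a peak 1 to 3 kb after the start, with exact 95% intervals and the number of genes in parentheses. The dashed line marks the 22.6% of all protein-coding genes, and the list of immediate early and single-coding-exon factors lies highest at 69.0%, an order that does not hold when members of at least 5 fragments are required (44.8%, below the 52.9% of housekeeping genes).

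Several members often shared a gene. A single member lay in 61.3% of the 5489 genes, 2 in 26.2% and 3 or more in 12.5%. PLEC, which encodes the cytoskeletal linker plectin, and NPLOC4, a cofactor of the p97 segregase, had 7 each, measured from several alternative starts. The PLEC peaks held 1 to 15 fragments at folds of 1.59 to 3.06, and the NPLOC4 peaks 1 to 9 fragments at folds of 1.54 to 2.40. SULT1A3, a sulfotransferase with a near-identical copy, the pseudogene BMS1P22 and MIR4639, whose peaks lay in MYLIP, had 6 each and are named by the order of their p among 10 genes with that number. None of these 5 genes had a member with a q of at most 0.05, and the peaks of BMS1P22 were on chromosomes 14 and 22, so their placement is uncertain.

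Most member genes had peaks elsewhere too. A promoter-class peak within 1 kb after the start was present in 76.1% of the 5489 genes, an upstream promoter-class peak in 29.7% and a peak outside the promoter class in 86.8%. All peaks of the gene were members in 3.08%. The highest fold of the gene was that of a member in 21.2%.

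The promoters of the member genes were searched for the cAMP response element, since CREB binds DNA while these peaks are RNA. The 250 bases before and 50 after the start in the RefSeq table were searched for TGACGTCA, which reads the same on both strands, and for the shorter TGACG on either strand, which the longer motif contains. TGACGTCA was present in 540 of 27305 promoters (1.98%). It was present in 142 of 3772 coding genes with a member (3.76%, interval 3.18 to 4.42), in 178 of 6547 coding genes with a peak but no member (2.72%, interval 2.34 to 3.14) and in 91 of 5523 coding genes without any peak (1.65%, interval 1.33 to 2.02). TGACG was present in 25.01% of all promoters, and in 35.6%, 32.1% and 22.2% of those groups. Expression of the genes was not measured apart from the peaks, and its part in this order was not tested.

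Of the 58 genes that had a member with a q of at most 0.05 and a promoter in the table, 2 held TGACGTCA. This was 3.45% (interval 0.420 to 11.9), near the 3.57% (3.02 to 4.19) of the 4059 genes with any member. For TGACG the shares were 36.2% (interval 24.0 to 49.9) and 34.9%. The 58 genes are part of the 4059 and their intervals are wide, so whether either motif sets them apart cannot be told. The 120 bases before the starts of the 2 genes follow, on the strand of the gene and with the motif in capitals. They are printed because a listed element and a member at that q occur together there.
MYL6: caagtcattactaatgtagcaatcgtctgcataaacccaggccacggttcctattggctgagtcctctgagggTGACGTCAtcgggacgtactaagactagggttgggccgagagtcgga
ZC3H4: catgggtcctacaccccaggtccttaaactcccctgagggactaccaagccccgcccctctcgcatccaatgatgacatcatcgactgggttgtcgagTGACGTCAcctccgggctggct

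The MYL6 stretch is chr12:56158239-56158358 (plus strand), and its motif begins 47 bases before the start. The ZC3H4 stretch is chr19:47113777-47113896 (minus strand), and its motif begins 22 bases before the start. ZC3H4, a zinc finger protein that restricts non-coding transcription, had a member of 5 fragments at 0.216 with a fold of 4.93 (2.16 to 10.4). In these genes the motif lies upstream of the transcript and the peak inside it. A match is a run of letters and not evidence of binding.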

How the data were processed

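The authors deposited 1 annotated peak list from 1 CRTC2 RIP and 1 input library. The tools named in the submitters' processing notes are HISAT2 and MACS2, and the build is hg38, without versions or settings. The deposited fold is a linear ratio, the deposited −log10 p-value and −log10 q-value are the caller's, and the deposited score repeats the −log10 p, multiplied by 10, and was not used further. The lowest −log10 p was 1.30. The headers of the p and q columns were spoiled, and these columns were identified by place and value.

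RIP fragments and input level, each raised by 1, give the fold as their ratio, and a Poisson model of the fragments at that level gives the p. A whole number of fragments met both within 0.001 for 100% of peaks (1.83% with shuffled p-values) and was the only such number for 97.5%; otherwise the closest was taken. The recovery was tested on simulated data. For a fold the interval is exact Poisson, with the input level taken as known; for a share it is Clopper-Pearson (scipy 1.17.1). Genes, spans and promoters came from RefSeq tables (GRCh38.p14, whose chromosomes have the coordinates of hg38).

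The members and gene lists were chosen with earlier results of these data known. Named genes are CRTC2 and YTHDF2, the 10 with the highest member fold on at least 5 fragments, the 10 ranked first by −log10 q, the 5 holding most members (ties by −log10 p, then symbol) and up to 4 of each list by fold; some of the last are given by counts alone, and some named by the rule are not reported here. Exon overlap and GGACT in all summit windows were planned and not analysed here, since they need a genome of the build.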

Additional observations from a re-analysis of the deposited data

How the results depend on the processing

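Each library has no replicate, so no left-out replicate could be tried. No paired analysis was possible because each group holds 1 library. Of the 8511 members in 5489 genes, 1.07% in 86 genes remained at a q of at most 0.05, 0.106% in 9 at a −log10 q of at least 5, 1.19% in 96 at a fold of at least 4, 26.5% in 1683 with at least 5 RIP fragments and 53.1% in 3650 up to 2000 bp. The median fold of 1.84 was 4.49, 7.40, 4.47 and 1.94 under the first 4 of these, 1.83 at widths of at most 1000 bp and 1.87 with 1 peak per gene. The median of 2 fragments became 8, 10, 6 and 9 under the same 4. The 1.07% at a q of at most 0.05 was 63.4% at a fold of at least 4, 2.92% with at least 5 fragments and 1.53% with 1 peak per gene. The 87.9% inside the assigned transcript was 82.4%, 77.8%, 90.1% and 83.9% under the 4 limits on q, fold and fragments, 89.0% up to 2000 bp and 98.0% for protein-coding genes. These limits select on the quantities themselves. Keeping all widths and contigs left every one of these 6 values within its interval or within 1.5 times. With at least 5 fragments, 12 of the 19 gene lists changed their number of genes with a member by over 1.5 times, and 7 did not. Among the 7, the blood and immune list and the stellate, endothelial and fibroblast list held no gene with a member and could not change. Chosen after seeing the data, leaving out members of 25 or more fragments gave 47.4% on 1 fragment, and leaving out microRNA and snoRNA genes gave 48.2%. Other settings for exon overlap and GGACT could not be tried, for want of a genome of the build. Depth limits the 46.6% of members on 1 fragment. Their folds all have intervals that include 1, which was fixed in advance, since at 1 fragment this holds even at the lowest input level, 0.0298.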
